A study of Caenorhabditis elegans with 2 samples.

Results

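The 349 peaks described here lie on the X chromosome of Caenorhabditis elegans, away from genes for small non-coding RNAs, in a chromatin immunoprecipitation experiment on the protein F44E2.7. They come from 1 group of 2 biological replicates of whole L4 larvae aged 48 hours, grown from bleached embryos that were held as starved first-stage larvae. Strain OP381 carried the transgene wgIs381, in which F44E2.7 from the clone P000012_B04 is fused to TY1, EGFP and 3xFLAG, together with unc-119(+), on an unc-119(tm4063) background. The description in the labels states an anti-GFP precipitation, whereas their antibody field names F44E2.7. No untagged sample was analysed here, a possible control experiment is named without its use being given, and the lists hold no read counts, so sequencing depth is unknown.

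Members were chosen by the authors' own values and by position. The ranked list made from both replicates held 108809 peaks, of which 18959 were on X. A score of at least 540, which equals an IDR of 0.05 (irreproducible discovery rate, which is low where lists being compared rank a peak alike), kept 552 X peaks. Peaks scoring 830 or more (IDR 0.01) but absent from the authors' thresholded list were left out, 13 of them on X. This left 539 of 18959 ranked peaks on X (2.84%) and 2543 of 89850 on the autosomes (2.83%), shares that the score rule itself sets. Finally, a summit had to lie more than 200 bp from every annotated tRNA, snoRNA, snRNA and ncRNA gene. That distance removed 190 of 539 peaks on X (35.3%) and 408 of 2543 on the autosomes (16%), leaving 349 and 2135. On X, 127 of the 539 summits lay within 200 bp of a tRNA gene (23.6%), against 175 of 2543 on the autosomes (6.88%), and 137 lay as near to a gene of the ncRNA class (25.4%), against 295 (11.6%). At the edges, the lowest scores kept were 540, 541 and 541 and the highest left out were 539, 538 and 538. The nearest kept summits lay 226, 265 and 280 bp from a small RNA gene, and the farthest removed ones 182, 167 and 157 bp.

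In C. elegans, hermaphrodites have a pair of X chromosomes and males a single one. A condensin-based dosage compensation complex binds both hermaphrodite X chromosomes and lowers their transcription. It loads at recruitment sites on X that share an X-enriched DNA motif, whose core includes CGCAGGG, and spreads from there. X is also known for its paucity of germline-expressed and essential genes and for its many tRNA genes, which RNA polymerase III transcribes from internal promoter elements called the A box and the B box.

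The sequences below show summits of X peaks chosen because they hold CGCAGGG or share words with other X peaks. They are windows of 101 bp centred on the summit, read 5′ to 3′ on the plus strand of the RefSeq WBcel235 genome. Signal is the authors' enrichment value for a peak, on an unstated scale, and ranks run by signal over the 349 X peaks. The first set holds CGCAGGG or its reverse complement CCCTGCG, in capitals, and is shown because it was the 1 of 7 patterns whose share differed between X and autosomal summits past the threshold.
rank 2, near F20B6.9, chrX:4209232-4209332: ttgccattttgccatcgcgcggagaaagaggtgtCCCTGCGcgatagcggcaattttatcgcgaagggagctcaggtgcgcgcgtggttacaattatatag
rank 3, mom-1 intron, chrX:6296537-6296637: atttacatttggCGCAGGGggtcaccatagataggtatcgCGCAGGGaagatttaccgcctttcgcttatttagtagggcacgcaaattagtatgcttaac
rank 7, near W02H3.3, chrX:11094172-11094272: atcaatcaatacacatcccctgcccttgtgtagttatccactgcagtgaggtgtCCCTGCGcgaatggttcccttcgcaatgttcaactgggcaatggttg
rank 10, intron of the pseudogene T26C11.3, chrX:1837809-1837909: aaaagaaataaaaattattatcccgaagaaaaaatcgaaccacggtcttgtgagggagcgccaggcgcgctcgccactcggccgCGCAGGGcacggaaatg
rank 14, near T27A8.7, chrX:16056494-16056594: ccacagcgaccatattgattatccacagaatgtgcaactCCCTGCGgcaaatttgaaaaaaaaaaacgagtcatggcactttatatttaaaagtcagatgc
rank 21, promoter window of nspc-17, chrX:14525865-14525965: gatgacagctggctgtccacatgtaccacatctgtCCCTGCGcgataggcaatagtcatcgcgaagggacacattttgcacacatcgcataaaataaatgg
rank 86, near gtr-1, chrX:806634-806734: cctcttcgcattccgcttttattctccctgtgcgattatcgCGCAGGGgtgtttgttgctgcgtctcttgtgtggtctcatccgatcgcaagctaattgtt
rank 288, near C15H9.9, chrX:6129237-6129337: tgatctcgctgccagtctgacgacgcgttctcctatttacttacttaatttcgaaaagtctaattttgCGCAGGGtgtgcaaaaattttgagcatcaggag

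The second set is shown because its members share sequence with other X peaks: capitals mark bases within words of 16 that also occur in the window of another X member. Ranks 1 and 5 belong to a short-period tandem array, rank 8 is an array of another unit, and rank 44 leads a family of 9 members.
rank 1, near C36E6.8, chrX:17442712-17442812: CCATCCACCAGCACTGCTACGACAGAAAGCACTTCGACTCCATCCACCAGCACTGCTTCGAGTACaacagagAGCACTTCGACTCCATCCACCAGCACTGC
rank 5, near C36E6.8, chrX:17444801-17444901: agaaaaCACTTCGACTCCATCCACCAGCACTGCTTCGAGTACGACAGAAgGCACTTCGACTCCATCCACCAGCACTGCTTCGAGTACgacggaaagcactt
rank 8, near sms-2, chrX:943843-943943: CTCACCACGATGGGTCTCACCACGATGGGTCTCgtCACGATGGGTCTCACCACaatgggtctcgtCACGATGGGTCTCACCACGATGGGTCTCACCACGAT
rank 44, ptr-24 intron, chrX:13346103-13346203: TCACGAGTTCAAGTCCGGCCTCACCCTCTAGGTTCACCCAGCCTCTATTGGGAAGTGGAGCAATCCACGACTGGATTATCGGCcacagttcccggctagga

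CGCAGGG occurred in 8 of 349 X windows (2.29%) and in 13 of 2135 autosomal windows (0.609%), an odds ratio of 3.83. The difference passed a two-sided Fisher exact test over 7 patterns (p = 0.00537, Benjamini-Hochberg adjusted p = 0.0376). Peaks are no replicates of a condition, and this and later p-values therefore describe the lists alone. In the other series-level ranked list the difference was 1.09 percentage points in place of 1.68 and missed the threshold (Fisher exact test, p = 0.0536, adjusted p = 0.295), as did the 0.962 points found with no distance filter (exact p = 0.0398, adjusted p = 0.0928). The pattern was scarce away from summits: it was found in 0.287% of X flanks and 0.141% of autosomal flanks, centred 300 bp from the summit. Of all windows of 101 bp tiled along the chromosomes, 0.156% on X and 0.152% on the autosomes held it. Summits were also richer in GCGCGC, another of the 7 patterns, which was in 2.87% of X and 3% of autosomal windows. It was in 0.572% and 0.661% of tiled windows. A rise at summits is thus not particular to CGCAGGG, and how far GC content accounts for it was not tested. By chromosome, CGCAGGG was in 8 windows on X, 9 of 554 on V (1.62%) and 2 on III. It was in 1 each on II and IV and 0 on I, so chromosome V supplied most of the autosomal cases.

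The surroundings of the core separated X and autosomes further. Of 9 occurrences at X summits, 6 were preceded by CG and 5 by TCG, whereas of 13 at autosomal summits 1 was preceded by CG and 0 by TCG. The longer pattern CGCGCAGGG was looked at after these data had been seen and is given as counts. It was in 6 X windows (1.72%) and 1 autosomal window (0.0468%), on V. The same letters were in 30 of 175435 tiled windows on X (0.0171%) and 42 of 817362 on the autosomes (0.00514%). Within the windows of 101 bp searched, 6 of 9 matches on X and 8 of 13 on the autosomes were centred within 20 bp of the summit. Every match in such a window is close to the summit, and these counts were not tested against random placement in it. A match describes letters and is no evidence of binding by the dosage compensation complex.

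Peaks with CGCAGGG were among the highest on X. Their median signal was 96.4 (56 to 151), against 62.3 for the 341 X peaks without it, and 5 of the 14 X peaks with a signal of 90 or more held the pattern. On the autosomes the 13 peaks with the pattern had a median of 75.1 and accounted for 3 of 152 peaks with a signal of 90 or more. The peak of rank 2, chrX:4209147-4209416, lay between genes with its summit 1797 bp upstream of F20B6.9 and had a signal of 151, with 67.3 in replicate 1 alone and 88.1 in replicate 2 alone. Rank 3, chrX:6296452-6296721, with 2 occurrences, lay in an intron of mom-1, which encodes the Porcupine-type enzyme needed for Wnt secretion. It had a signal of 141, with 55.1 in replicate 1 and 86.2 in replicate 2. Both peaks were in the thresholded list of each replicate. At rank 7 the signal was 114, with 52.1 in replicate 2 and no overlapping peak in the ranked list of replicate 1.

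The windows at ranks 2, 7 and 21 were linked by shared words of 16 bases, which extended the match beyond the core. The commonest of those words was in 2 of these windows and occurred 3 times on X and 0 times on the autosomes. It was picked because X windows share it, which favours X in this count. None of the 8 X windows with CGCAGGG was repeated sequence (median 24-mer in 1 copy), whereas 3 of the 13 autosomal ones were. The window of rank 10 also held the B box core GTTCGA, on the opposite strand from its CGCAGGG. It shared no word of 16 bases with an annotated tRNA gene, and whether it is tRNA-like was not tested.

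**Figure D1:**
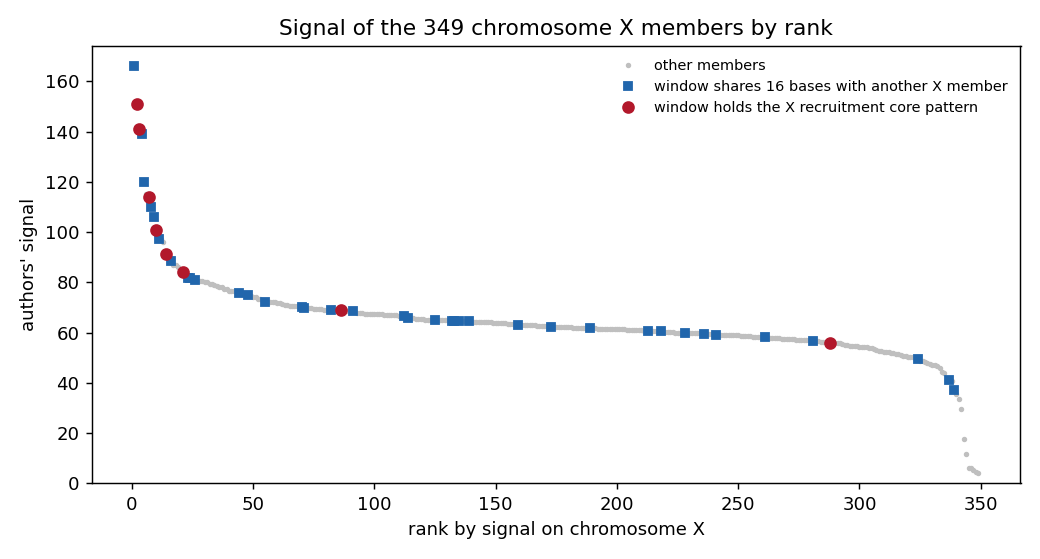
Authors' signal (vertical axis, list of both replicates) against rank by signal for the 349 X peaks. Large red circles hold CGCAGGG at the summit. Blue squares share a word of 16 bases with another X window, and grey points are the other members. The members of ranks 2, 7 and 21 have both features. Of the 8 red circles, 5 have a signal above 90.

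Sequence shared between X peaks made up much of the top of the list. In all, 40 of 349 X windows (11.5%) fell into 9 groups whose members shared a word of 16 bases, and 8 of the 15 highest peaks were in such a group. No share of autosomal windows grouped in this way is given, so the sharing is not shown to be particular to X. The highest X peak in the list of both replicates, chrX:17442627-17442896, had a signal of 166. It had 74.7 in replicate 1 and 92.1 in replicate 2. It lay in an array downstream of the start of C36E6.8 with the peaks of rank 5 (120) and rank 16 (88.6). Its commonest shared word occurred 88 times on X and 0 times on the autosomes. For the group of rank 8 the counts were 140 and 1294, or 7.9 and 15.7 copies per Mb, and 10 autosomal peaks shared its sequence. For a group of 2 near rab-14 and K09E9.3 they were 93 and 2223, with 21 autosomal peaks sharing. The remaining groups had more copies per Mb on X than on the autosomes. Every word counted was picked because X windows share it, which favours copies on X. No counts are given for words picked from autosomal windows, so these densities are not shown to be particular to X. Reads from such copies can map to several places, and the labels do not say how such reads were placed.

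A group of 9, led by the ptr-24 intron (ptr-24 is a patched-related gene), held GTTCNANNC in 9 of 9 windows. Its members were grouped by shared sequence, so these are not 9 separate observations of the pattern. Of the 9, 8 lay beyond 13 Mb, where 121 of the 349 X peaks (34.7%) lay. The commonest word of this group, again picked from X windows, was present 57 times on X and 65 times on the autosomes. That is 3.22 and 0.787 copies per Mb. The largest group, of 11 members, had 10 beyond 13 Mb and 8 in introns, among them those of pfk-1.1 (a phosphofructokinase), sgk-1 (a serum- and glucocorticoid-inducible kinase), mrp-3 (an ABC transporter, with 2 summits) and nfki-1. Signals in that group ran up to 81.7.

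Despite the distance rule, some kept X windows carried a B box pattern, although few matched an annotated tRNA gene. GTTCNANNC, chosen after the data had been seen and given as counts, was in 29 X windows (8.31%) and 107 autosomal windows (5.01%), against 3.82% of tiled windows on X and 3.47% on the autosomes. Of the X windows with it, 9 were in the group led by the ptr-24 intron and 3 in a group of 4 that includes rank 4. Such related copies were not counted for the autosomes here. Only 3 X windows (0.86%) and 14 autosomal windows (0.656%) shared 16 bases with an annotated tRNA gene. The window of rank 12, in the promoter window of F02E8.4, held GTTCNANNC and was not among these 3. Windows whose median 24-mer was repeated in the genome numbered 36 on X (10.3%) and 249 on the autosomes (11.7%).

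The other 6 patterns tested did not pass. GAGAG was in 82 X windows (23.5%) and 400 autosomal windows (18.7%, Fisher exact test, adjusted p = 0.0954), against 12.6% and 12.5% of tiled windows. TGATAA, the GATA factor core, was in 27 X windows (7.74%) and 105 autosomal windows (4.92%, Fisher exact test, adjusted p = 0.0954), both below the 9.96% and 9.22% of tiled windows. The B box core GTTCGA was in 3.72% of X and 4.4% of autosomal windows, and the E box CACGTG in 2.29% and 2.86%. A run of 6 T, TTTTTT, was in 17.5% and 17.8%, well under the 40.6% and 41% of tiled windows. GCGCGC was in 2.87% and 3%, and each of these 4 had an adjusted p of 1 from the Fisher exact test. All patterns were searched on both strands, and GTTCGA can overlap GTTCNANNC as CGCAGGG does CGCGCAGGG. With windows of 100 bp to either side, 2 patterns passed.

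X summits were GC-rich against AT-rich surroundings. GC content averaged 48.1 ± 8.58% at X summits and 47.5 ± 8.87% at autosomal summits (SD, n = 349 and 2135 windows), whereas the flanks averaged 35.3% on X and 37.1% on the autosomes. The summit exceeded its own flanks in 306 X peaks (87.7%) and 1818 autosomal peaks (85.2%). The mean step was 12.7 percentage points on X and 10.4 on the autosomes, a description given with no test. The whole of X has a GC content of 35.2%, against 35.5% for the autosomes.

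**Figure D2:**
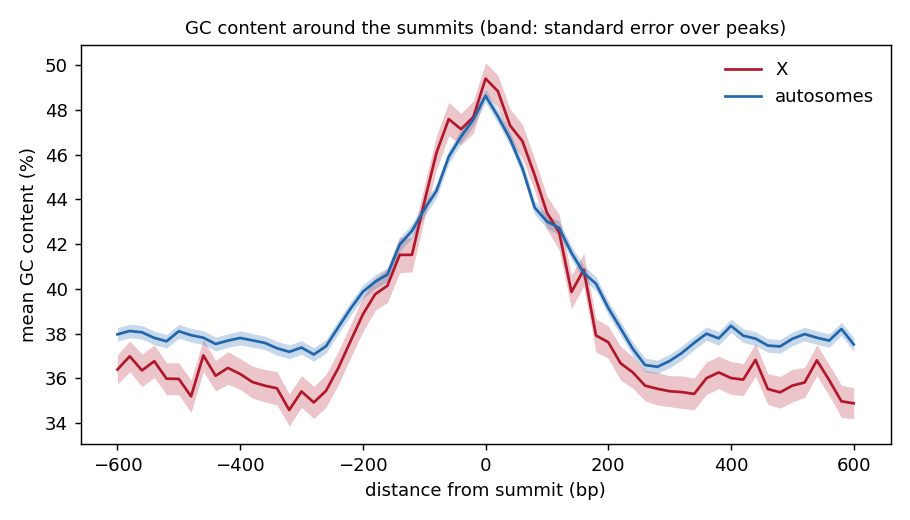
Mean GC content (vertical axis, %) by distance from the summit (horizontal axis, bp) for X peaks (red) and autosomal peaks (blue); bands are standard errors over peaks. Both rise at the summit, and the X curve is the lower one in the flanks.

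X peaks lay between genes more often than autosomal peaks, and less often in promoter windows. A summit was called intergenic where it lay outside every promoter window and every annotated gene other than piRNA genes, whose bases count as intergenic unless another class covers them. Promoter windows spanned 1000 bp before and 200 bp after the starts of protein-coding genes. Intergenic summits numbered 96 of 349 on X (27.5%, exact Clopper-Pearson 95% interval 22.9 to 32.5%) and 349 of 2135 on the autosomes (16.3%, 14.8 to 18%), an odds ratio of 1.94 (Fisher exact test, adjusted p = 1.05e-05 over 6 classes). Intervals cover counting error only. Promoter windows held 57 X summits (16.3%, 12.6 to 20.6%) and 513 autosomal summits (24%, 22.2 to 25.9%), an odds ratio of 0.617 (Fisher exact test, adjusted p = 0.00371). With shorter promoter windows, reaching 500 bp before and 100 bp after the start, the difference was -3.67 percentage points in place of -7.7 and missed the threshold (Fisher exact test, p = 0.0511, adjusted p = 0.102).

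The chromosomes differ in composition in the same direction. Intergenic sequence made up 29.3% of X and 20.1% of the autosomes, and promoter windows 17.6% and 22.3%. Set against these shares, intergenic summits were at 0.938 times their share of the sequence on X and 0.814 times on the autosomes, and promoter summits at 0.928 and 1.08 times. How far composition accounts for the difference was not tested. X had the highest intergenic share of the 6 chromosomes, 27.5%, followed by I with 17.6%, while IV, at 25.5% intergenic sequence, had 15.5%.

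The remaining classes did not pass the test. Coding exons held 94 X summits (26.9%) and 656 autosomal summits (30.7%, Fisher exact test, adjusted p = 0.333), which was 1.53 and 1.49 times their share of the sequence. Introns held 91 (26.1%) and 529 (24.8%, adjusted p = 0.67), untranslated regions 4 and 50 (adjusted p = 0.347), and exons of non-coding genes 7 and 38 (adjusted p = 0.67), by the same exact test.

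**Figure D3:**
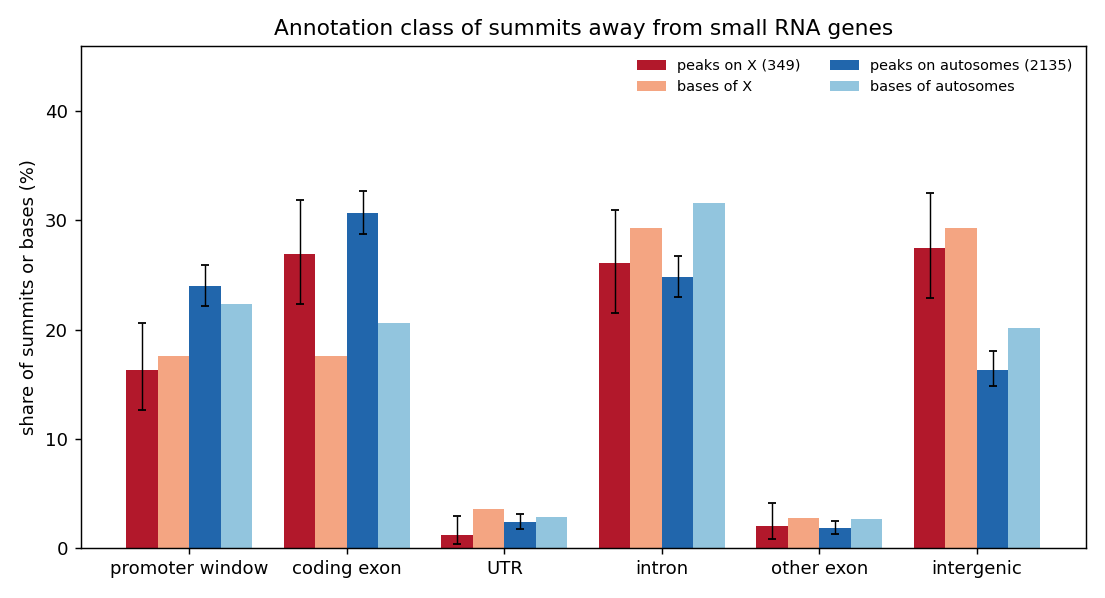
Share of summits in each annotation class for X peaks (dark red) and autosomal peaks (dark blue) with exact 95% intervals, each beside the share of that chromosome set's bases in the class (light bars). Intergenic summits are 27.5% on X and 16.3% on the autosomes, and promoter window summits 16.3% and 24%.

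The intergenic share was higher among X peaks of higher score. With a score of 830 or more, 25 of 56 X peaks were intergenic (44.6%, 31.3 to 58.5%), against 88 of 500 autosomal peaks (17.6%, 14.4 to 21.2%). The 25 are not all separate unique sites. They include ranks 1, 5 and 16 from 1 array, and other repeated windows such as those of ranks 6 and 8. No such split is given without repeated windows. With a score under 830 the counts were 71 of 293 on X (24.2%) and 261 of 1635 on the autosomes (16%). CGCAGGG followed the same division on X, with 5 of the 56 strict peaks (8.93%) and 3 of the other 293 (1.02%), against 5 of 500 (1%) and 8 of 1635 (0.489%) on the autosomes. These splits describe the members, and the trend with score was not tested.

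Each replicate's own ranked list, filtered by the same rule, gave fewer peaks. Replicate 1 gave 24 on X of 274 in all (8.76%), and replicate 2 gave 45 of 451 (9.98%). Intergenic summits were 14 of 24 on X against 69 of 250 on the autosomes in replicate 1 (58.3% and 27.6%, exact p = 0.00405) and 25 of 45 against 85 of 406 in replicate 2 (55.6% and 20.9%, exact p = 3.61e-06). Promoter windows held 12.5% of X and 24% of autosomal summits in replicate 1 (exact p = 0.309), and 13.3% and 26.6% in replicate 2 (exact p = 0.069). CGCAGGG was in 5 X and 3 autosomal windows in replicate 1, and in 4 and 4 in replicate 2. These lists are not independent of the list of both replicates, which per the file notes derives from the same samples.

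Among the 15 X peaks of highest signal, 10 were intergenic, 3 in introns and 2 in promoter windows. Signals ran down to 89.7, at an intron of mbl-1, the muscleblind splicing factor. There the value was 34.3 in replicate 1 and 51 in replicate 2. Replicates ranked these peaks differently. The promoter window of pkhm-2 had 96.2 in the list of both replicates, with 27.2 in replicate 1 and 71.3 in replicate 2. That of F02E8.4 had 97.3, with 53.1 and 49.5. Outside the 15, the peak of rank 326, chrX:7077853-7078122, had only 48.6 in the list of both replicates. Its overlapping peaks had 87.9 in replicate 1 and 95.7 in replicate 2, above the 74.7 and 92.1 of rank 1. Of the 15, 14 were in the conservative list, 8 in replicate 1's thresholded list, 8 in replicate 2's, and 4 in both.

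**Figure D4:**
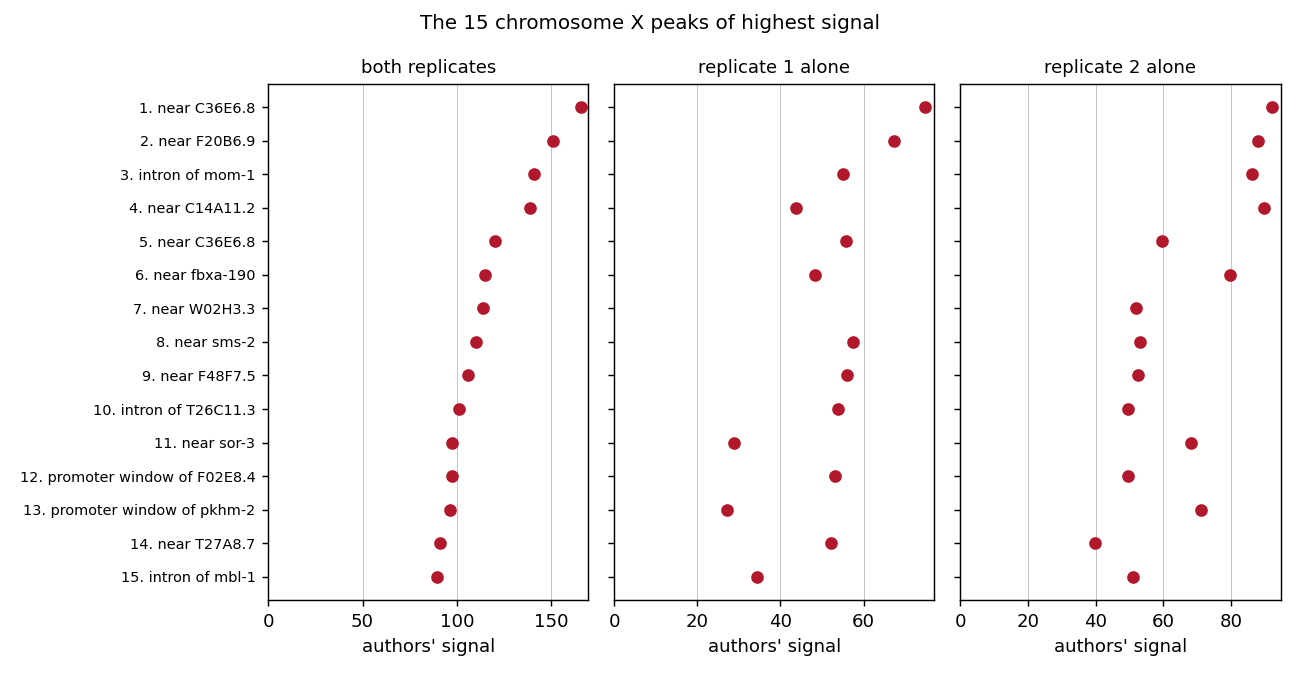
Authors' signal for the 15 X peaks of highest signal in the ranked list of both replicates (left), of replicate 1 (middle) and of replicate 2 (right); scales differ between lists. The peak near W02H3.3 has no point in replicate 1 because no ranked peak overlapped it there.

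Over all members, X and autosomal peaks had similar signals in the middle of the range, and a smaller share of X peaks reached a high score. The median was 62.4 on X (quartiles 58.1 and 68.8) and 63.1 on the autosomes (57 and 71.2). The highest value was 166 on X, and on single autosomes it ran from 181 on V to 345 on III. A maximum grows with the number of peaks, so 166 and 345 are not directly comparable. A score of 830 or more was reached by 56 X peaks (16%) and 500 autosomal peaks (23.4%), with the lowest share on II (20.4%) and the highest on V (29.8%). Signals under 10 were rare: 5 X peaks had 4.02 to 6.17, and 4 of these lay within 210 bp of another member, as did 38 of the 42 autosomal ones. An example is F09C8.2, where a summit with 4.02 lay beside one with 55.8.

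Most members overlapped a peak in both ranked lists of single replicates, at much lower confidence. On X 333 of 349 (95.4%) overlapped a peak of replicate 1 and 344 (98.6%) one of replicate 2. On the autosomes these were 2035 (95.3%) and 2095 (98.1%) of 2135. An overlap needed 1 bp only, and no share is given for all ranked peaks or random positions, so these shares have no background. The overlapping peak reached a score of 540 for 20 X members in replicate 1 and 40 in replicate 2. On the autosomes the counts were 195 and 343. In the thresholded lists, 8 X peaks were found in replicate 1 (2.29%) and 11 in replicate 2 (3.15%), with 4 in both, against 64 (3%), 139 (6.51%) and 42 on the autosomes. Across the 328 X peaks with a value in both lists, Spearman's rho between the replicates' signals was -0.265 and Pearson's r 0.194, against -0.06 and 0.379 on the autosomes, as descriptions over peaks that were chosen on their combined values.

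Few X genes had a member in their promoter window: 58 of 2731 protein-coding genes (2.12%), against 563 of 17242 on the autosomes (3.27%). Where there was one, the summit had a median position of -215 bp from the start on X and -336 bp on the autosomes, and 28 of 57 on X (49.1%) and 205 of 513 on the autosomes (40%) lay within 200 bp of it. A single summit served the windows of several genes in 2 cases on X and 83 on the autosomes. The 2 on X, named after their values were seen, were rab-14, a vesicle GTPase, with nipi-3, and ile-2 with trap-2, a subunit of the translocon-associated complex.

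Among heat shock genes, a promoter summit was found at hsp-3, which encodes the endoplasmic reticulum chaperone BiP. Its promoter window held a summit 91 bp upstream of the start with a signal of 81.6, with 33.4 in replicate 1 and 41.2 in replicate 2, and its coding sequence a second summit with 50.5. It was the 1 heat shock gene with a promoter summit among 5 on X, against 3 of 46 on the autosomes. For abu-12, the summit lay 17 bp upstream and had 85.3, with 33.1 in replicate 1 and 47.4 in replicate 2.

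The promoter window of dop-1, a dopamine receptor, held a summit with 70.5, with 30.6 in replicate 1 and 37.4 in replicate 2. It was the 1 of 53 neurotransmitter receptor and synaptic genes on X, against 3 of 121 on the autosomes. Among chromatin genes, hil-3, a linker histone, had 67.2 at 6 bp downstream of its start, the 1 of 5 histone genes on X, against 5 of 77. dpy-7, a cuticle collagen, had summits with 58.3 at its start and 57.8 in its coding sequence, and was the 1 of 30 collagen genes on X with a promoter summit, against 3 of 145. The chemoreceptor gene srxa-8 had 61.4 (1 of 34 on X, 21 of 1334 on the autosomes) and the neuropeptide-like gene nlp-76 55.3 (1 of 37 on X, 3 of 107 on the autosomes).

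No X member lay in a promoter window of the other 10 gene lists examined. These were potassium channels (0 of 20 on X, 1 of 55 on the autosomes), homeobox genes (0 of 26, 3 of 71), nuclear hormone receptors (0 of 27, 6 of 247), dosage compensation and X signal elements (0 of 7, 0 of 15), vitellogenins (0 of 5, 0 of 1), heterochronic genes (0 of 4, 2 of 7), muscle genes (0 of 16, 0 of 40), basement membrane and adhesion genes (0 of 10, 0 of 19), cytosolic ribosomal proteins (0 of 2, 18 of 79) and cytochrome P450, GST and UGT genes (0 of 14, 3 of 171). With 2.12% of X genes called, counts of 0 or 1 in lists of this size lie near the background.

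Inside gene bodies, 27 X genes had at least 2 member summits in their promoter window or body. No autosomal count is given beside it, so it describes X alone. The same 2 summits, with 51 and 5.43, were counted for both ZC8.6 and lfi-1. H28G03.2 had the most, 4 summits over 10473 bp, with signals of 60.4, 65.4, 68.2 and 73.2. F09C8.2 and ZK470.2 had 3 each, and those of F09C8.2 include the summit with 4.02 that lay beside another. kin-29, a salt-inducible kinase, had 2 in its promoter window, with 62.1 and 59.9. The serotonin receptor gene ser-1 had 2 in coding exons, with 67.4 and 50.7. spc-1, which encodes alpha spectrin, had 67.5 in a coding exon and 50.4 in its promoter window, and unc-84, a SUN-domain protein of the nuclear envelope, had 47.1 and 59.7. The gene for S-adenosylmethionine synthetase, sams-1, held the highest summit in an untranslated region, with 72.1. In coding exons the highest was 82.5, in the collagen gene col-187, followed by C44H4.4 with 80.6, aco-1, a cytosolic aconitase, with 77.4, F35A5.1 with 76.4 and F39F10.3 with 75.5. In introns, mom-1, T26C11.3 and mbl-1 were followed by T18D3.9 with 85.9 and pfk-1.1 with 81.7. The highest in non-coding exons were CE7X_3.1 with 70.7 and CE7X_3.2 with 69.1.

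X members were sparse by length but not by gene number. X had 19.7 peaks per Mb, the lowest of the 6 chromosomes, against 25.9 for the autosomes together and 20.7 for IV, the next lowest. Per 1000 protein-coding genes, X had 128 and the autosomes 124. X held 14% of all 2484 peaks (12.7 to 15.5%), with 17.7% of the sequence and 13.7% of the protein-coding genes. Without the distance rule its share was 17.5%, and among peaks scoring 830 or more it was 10.1%. Neighbouring members on X were a median of 30890 bp apart, against 21278 bp on the autosomes. Of 348 gaps on X, 17 were of at most 1000 bp, against 216 of 2130 on the autosomes. The median distance to the nearest protein-coding start was 2232 bp on X and 1480 bp on the autosomes, and that to the nearest small RNA gene 5397 and 8626 bp.

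Along the chromosome, the share of X peaks in the middle was near that of autosomal peaks in the list of both replicates, and lower on X, without passing, under stricter choices. The central 50% of the length held 138 of 349 on X (39.5%, 34.4 to 44.9%) and 849 of 2135 on the autosomes (39.8%, 37.7 to 41.9%), a difference of -0.224 percentage points that did not pass (Fisher exact test, p = 0.953). The difference was -10.8 points at an IDR of 0.01, -11 in replicate 1 and -5.34 in replicate 2, and -4.11 when autosomal peaks on V beyond 19 Mb were left out, none of which passed. Gene starts were more central, with 52.9% of those on X and 55.7% of those on the autosomes. Of 10 equal segments of X, the last 2 held 47 and 49 peaks and the first 46, whereas segment 6 held 19.

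**Figure D5:**
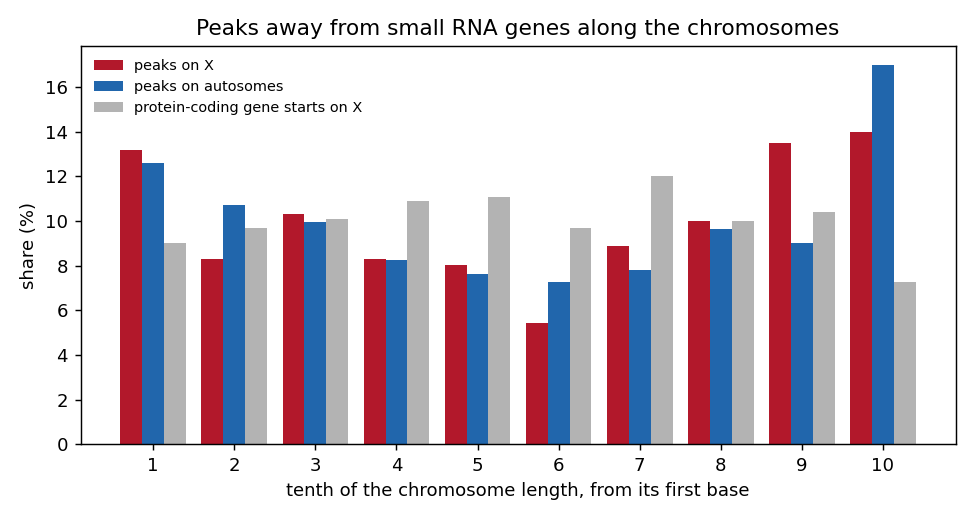
Share of peaks in each of 10 equal segments of the chromosome length for X (red) and all autosomes (blue), beside the share of X protein-coding gene starts (grey). On X segments 1, 9 and 10 hold 13.2%, 13.5% and 14% of peaks and segment 6 holds 5.44%.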

How the data were processed

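Peak lists came from 2 biological replicates of 1 group, 8 lists in all, 4 of them ranked and 4 thresholded. Sonicated chromatin of size range 200 to 800 was used and coordinates are on ce11, per the labels. The sources used here name no aligner or peak caller. The deposited score (whole numbers, at most 1000) follows the −log10 IDR that the authors gave for each peak. The deposited signal is the authors' enrichment value on an unstated scale, compared only within a list.

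Members and lists were chosen with earlier results of these data known. Coordinates are 1-based. Chromosome lengths of WBcel235 hold every peak used. Classes came from the Ensembl annotation, in the order promoter window, coding exon, untranslated region, non-coding exon, intron, intergenic, and names missing there from RefSeq. Peaks on X and the autosomes were compared by two-sided Fisher exact tests, with Benjamini-Hochberg adjustment at 0.05 over 6 classes or 7 patterns. Replicate values are those of the best-overlapping ranked peak (at least 1 bp). Peaks named are the 15 of highest signal, those in promoter windows of 16 gene lists defined by symbol, genes with 2 or more summits, up to 5 per class, and those at the thresholds. Genes at CGCAGGG or shared-word windows, and at summits in several promoter windows, were named after their values were seen. The receptor list was corrected after its matches were seen, which removed serp-1.1. CGCGCAGGG, GTTCNANNC, shared words and repeat filters were added after the data were seen. Counting was tested on simulated data. Analyses ran in Python 3.11.15 with scipy 1.17.1, numpy 2.4.6, pandas 2.3.3 and matplotlib 3.10.9. The sequences of 1 group of X windows are not reported here.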

Additional observations from a re-analysis of the deposited data

How the results depend on the processing

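The higher intergenic share of X kept its direction and its call under all 14 alternatives, with differences of 7.15 to 34.6 percentage points. The X share of 14% became 10.1% at an IDR of 0.01, 17.5% with no distance filter, and 8.76 to 9.98% in single replicates. Of 6 classes, 2 passed, against 6 with no distance filter and 1 in either replicate alone. The promoter difference of -7.7 points lost its call with windows of 500 and 100 bp (-3.67) and in single replicates (-13.3 to -11.5), where fewer peaks were tested. The central-half difference of -0.224 points, which passed under no setting, turned to 2.09 with no distance filter, 0.0928 with tRNA pseudogenes, miRNA and piRNA genes added, and 1.29 without repeated windows, and was -10.8 at an IDR of 0.01, -11 to -5.34 in single replicates and -4.11 without the end of V. The CGCAGGG difference of 1.68 points lost its call, adjusted over 7 patterns, in the other series-level list (1.09) and with no distance filter (0.962), and kept it in the remaining 10 alternatives. Windows of 100 bp to either side gave 2 passing patterns in place of 1. The causes were not tested. No paired analysis was possible because there was 1 group. Depth is unknown, so no limit of detection could be set, and no untagged sample was used.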
